A study of Homo sapiens with 12 samples.

Results

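HCC1806 was compared with SUM159 and MDAMB231, a set of 12 of the 12 libraries of the study, with 4 libraries of HCC1806 against 8 of the other lines. All are established triple-negative breast cancer cell lines, a class that is defined in the clinic by low estrogen receptor, progesterone receptor and ERBB2. SUM159 and MDAMB231 are widely classed as mesenchymal-like, and HCC1806 as basal-like. The libraries were grouped by the cell line named in the labels, with no use of measured values. Polyadenylated RNA was sequenced, with 1 library per line and treatment. Every line received DMSO (the vehicle), JQ1 (an inhibitor of the BET bromodomain proteins), GSK2801 (an inhibitor of the BAZ2A and BAZ2B bromodomains) or both, for 72 h. GSK2801 was given at 10 µM throughout, and JQ1 at 500 nM to HCC1806, 300 nM to SUM159 and 100 nM to MDAMB231. HCC1806 grew in RPMI 1640 with 10% fetal bovine serum. The other lines grew in a mixture of DMEM and F12 with 5% serum, insulin at 5 µg/ml and hydrocortisone at 1 µg/ml. The identity of the line, its medium and its JQ1 dose cannot be told apart here.

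Epithelial cells hold together through cadherins, claudins and desmosomal cadherins, rest on laminin through hemidesmosomes, and fill their cytoplasm with keratin filaments. Cells in a mesenchymal state use vimentin filaments and secrete interstitial matrix. The repressors ZEB1, ZEB2, SNAI1 and SNAI2 bind E-boxes, short promoter motifs of the form CAGGTG, and lower epithelial genes, while factors such as GRHL2, OVOL1 and TP63 and the splicing regulators ESRP1 and ESRP2 hold the epithelial program. Values below are the deposited estimated read counts, which the authors had scaled to 1 upper quartile in every library. A log2 difference is the mean of log2(value + 1) in HCC1806 minus that in the other lines at matched treatment, with the standard error (SE) of limma's moderated fit. A gene passed where its p-value, adjusted over all tested genes by the Benjamini-Hochberg method, was below 0.05.

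The sequences of 3 promoters show the motif beside the expression. CRB3 and PATJ encode members of the Crumbs polarity complex at tight junctions. Their RefSeq windows held the most E-boxes among the junction genes that were higher in HCC1806. VIM, the vimentin gene, is the mesenchymal marker. Shown are the 250 bases before each start on GRCh38.p14, all on the plus strand (CRB3 at chr19:6464021-6464270, PATJ at chr1:61742230-61742479, VIM at chr10:17227991-17228240), with CAGGTG and its reverse complement CACCTG in capitals:
CRB3: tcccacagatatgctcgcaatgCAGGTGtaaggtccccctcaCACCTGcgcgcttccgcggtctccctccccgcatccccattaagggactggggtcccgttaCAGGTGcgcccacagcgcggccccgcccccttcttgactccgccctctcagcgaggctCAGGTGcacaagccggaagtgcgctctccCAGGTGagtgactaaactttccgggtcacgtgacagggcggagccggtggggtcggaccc
PATJ: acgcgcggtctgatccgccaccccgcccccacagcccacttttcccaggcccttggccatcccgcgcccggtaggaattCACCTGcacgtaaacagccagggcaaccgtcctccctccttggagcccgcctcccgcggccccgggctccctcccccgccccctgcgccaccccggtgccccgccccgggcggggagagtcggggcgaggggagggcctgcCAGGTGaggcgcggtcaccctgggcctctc
VIM: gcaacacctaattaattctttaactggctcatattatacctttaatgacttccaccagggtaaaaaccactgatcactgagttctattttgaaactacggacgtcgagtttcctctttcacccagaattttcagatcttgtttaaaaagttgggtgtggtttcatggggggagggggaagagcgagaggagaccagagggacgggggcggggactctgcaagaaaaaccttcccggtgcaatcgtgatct
CRB3 held 5 such motifs, at 228, 208, 147, 89 and 60 bases before the start. PATJ held 2 in the stretch shown and 3 in its whole window of 300 bases, which also takes in 50 bases after the start. VIM held 0. Of all 35116 RefSeq windows of that length, 20.6% held at least 1 motif, 0.64% at least 3 and 0.094% at least 5. Of the 17 junction genes that were higher in HCC1806, 9 had a window, and 3 of these 9 held a motif. Of the 20 genes of the mesenchymal cytoskeleton that were lower, 16 had a window, and 3 held a motif. A motif match describes letters only, and no binding was measured. The window of CDH1 was not used here.

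In the labelled cell types, CDH1, the E-cadherin gene (chromosome 16, 68737225 to 68835548 on hg38), and VIM stood on opposite sides, while the keratin gene KRT6A depended on the treatment. CDH1 in HCC1806 was at 14154 with DMSO, 23166 with JQ1, 14790 with GSK2801 and 27120 with both, against 1.06 to 33.2 (median 19.8) in the 8 other libraries. Its log2 difference was 10.53 ± 0.75 (adjusted p = 8.09e-06, limma), and the groups did not overlap. VIM in HCC1806 was at 77.0, 173, 120 and 46.9 in the same order, against 90380 to 142226 (median 101333) elsewhere. VIM was thus lower in HCC1806 by far more than the libraries of a group varied (−10.16 ± 0.26, adjusted p = 1.58e-07). KRT6A, a keratin of stratified and activated epithelium, was at 2927 with DMSO and 4493 with GSK2801 in HCC1806, but at 42.6 with JQ1 and 129 with both. SUM159 held 74.1 to 204 and MDAMB231 0 to 3.31, so HCC1806 with JQ1 lay below SUM159, and HCC1806 with both inhibitors lay within its range. KRT6A did not pass (5.04 ± 2.0, adjusted p = 0.0666). ESR1, which encodes the estrogen receptor, stood at 102 to 138 in HCC1806 and at 0 to 12.9 elsewhere (5.62 ± 0.82, adjusted p = 5.54e-04). ERBB2 was at 4325 to 6456 against 1749 to 4142 (0.96 ± 0.28, adjusted p = 0.0198), which did not pass without HCC1806 with JQ1 (0.077), GSK2801 (0.0501) or both (0.0737). PGR is listed at 0 in the 4 libraries of HCC1806 and reached at most 12.1 elsewhere.

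**Figure D1:**
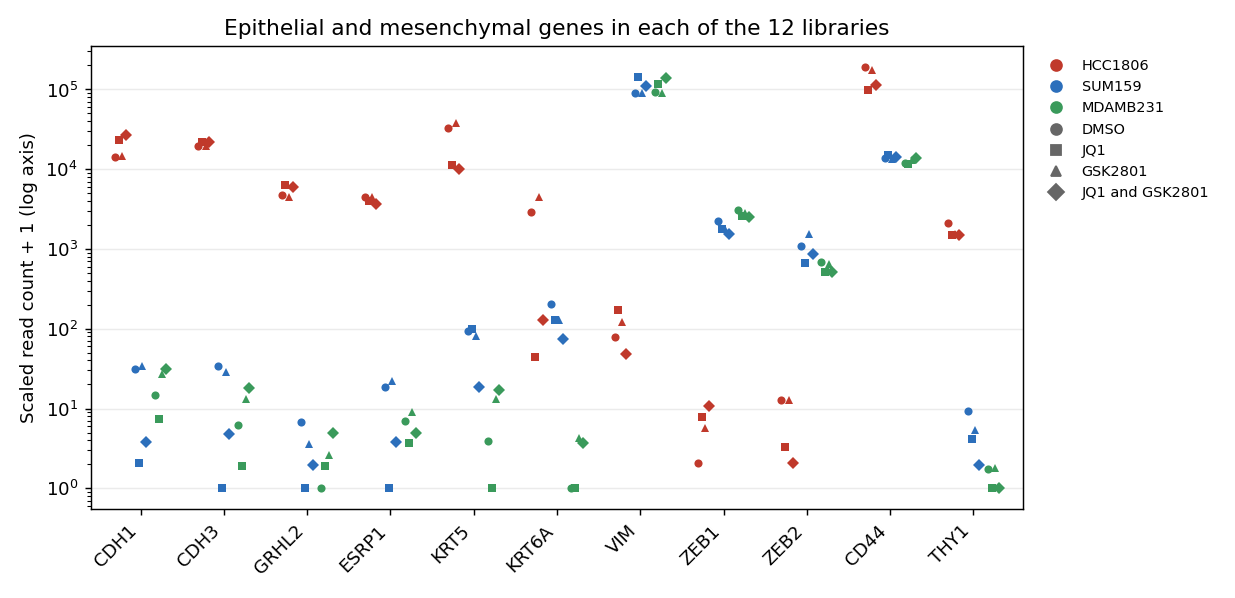
Scaled read count plus 1 (log axis) of 11 genes in each of the 12 libraries, with the line as color and the treatment as symbol. CDH1, CDH3, GRHL2, ESRP1 and KRT5 lie higher in all 4 HCC1806 libraries and VIM, ZEB1 and ZEB2 lower, while KRT6A of HCC1806 spans 42.6 to 4493 and CD44 and THY1 lie higher in HCC1806.

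Of the 14232 genes tested, 3362 (23.6%) were higher and 3321 (23.3%) lower in HCC1806, together 47.0%. Differences of at least 2-fold numbered 2199 higher and 1899 lower. The largest were uneven, with 720 genes at least 16-fold higher and 297 at least 16-fold lower. The contrast sets 1 line against 2, so a large rise and a large fall do not ask the same of the lines. The part of this in the unevenness was not tested. HCC1806 lay above all 8 other libraries for 2596 genes (18.2%) and below them all for 2302 (16.2%). Against each other line separately, 3313 genes (23.3%) were higher and 3238 (22.8%) lower in both contrasts. SUM159 and MDAMB231 also differed from each other in 8601 genes (60.4%). A gene set apart from both lines by unequal amounts could therefore miss the threshold. KRT19, a simple-epithelium keratin gene, did so, at 14984 to 36032 in HCC1806, 2986 to 13965 in MDAMB231 and 0 to 18.8 in SUM159 (6.98 ± 3.09, adjusted p = 0.0939). The 4 libraries of a line are 1 line grown under 4 treatments, so the fit counts libraries, not lines, as replicates. Its residual holds the difference between SUM159 and MDAMB231 beside the spread between libraries. With 1 mean per line, 1 line against 2, limma called 0 genes, and 1562 genes had an unadjusted p below 0.05. CDH1 (unadjusted p = 0.00224, limma) and VIM (9.55e-05) were among these.

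The libraries held 24200000 to 46800000 estimated reads, and those of HCC1806 26600000 to 29700000. Libraries of a line correlated at 0.935 to 0.993 on the log2 scale, HCC1806 with the other lines at 0.685 to 0.745, and SUM159 with MDAMB231 at 0.771 to 0.810. The first principal component held 50.6% of the variance and placed HCC1806 at 163 to 174 and the others at −109 to −60.5. The second held 35.9% and separated SUM159 from MDAMB231.

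Adherens and tight junction genes formed the list with 17 of its 21 tested members higher in HCC1806 and 0 lower, beside 23.6% and 23.3% of all tested genes, with a median log2 difference of 5.41 beside 0.03 over all genes. This and the lists below were chosen with earlier results of these data known, so their counts are descriptions and not independent evidence of a direction. The counts of each list below are to be read beside the same 23.6% and 23.3% of all tested genes. CDH3, which encodes P-cadherin of basal epithelium, was at 19633 to 22215 in HCC1806 and at 0 to 32.8 elsewhere (11.38 ± 0.74). CRB3 was at 704 to 932 against 0 to 12.8 (8.13 ± 0.70), and PATJ at 1735 to 2341 against 4.34 to 215 (5.41 ± 0.94). MDAMB231 lay between the other lines for several members. EPCAM, a homophilic adhesion molecule of simple epithelium, was at 11492 to 15287 in HCC1806, 84.0 to 375 in MDAMB231 and 0.945 to 7.87 in SUM159 (8.92 ± 1.72, adjusted p = 0.0026). CLDN7, a claudin of the tight junction strand, followed the same order, at 6313 to 9329, 123 to 284 and 1.89 to 23.4 (7.55 ± 1.44). Among the members that did not pass were OCLN (2.51 ± 1.10), TJP3 (3.07 ± 1.32) and CDH4 (0.73 ± 3.15). CDH4 encodes R-cadherin and was highest in MDAMB231, at 4218 to 6199.

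Of the desmosome genes, 9 of 12 were higher and 0 lower (median 4.63). PKP1, a plakophilin of stratified epithelium, was at 1947 to 4502 in HCC1806 and at 0 to 4.69 elsewhere (10.41 ± 0.56). DSC3, a desmocollin of basal cells, was at 1084 to 2394 against 0 to 2.67 (10.12 ± 0.53). DSP, which encodes the desmoplakin that ties the plaque to keratin, had 53425 to 66370 in HCC1806, 5564 to 7228 in MDAMB231 and 346 to 459 in SUM159 (5.28 ± 1.16). DSC2 (4.14 ± 2.71), JUP (2.94 ± 1.08) and PKP2 (1.77 ± 1.23) did not pass. JUP, the plakoglobin gene, still lay above every other library, at 10561 to 20192.

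The anchorage of basal cells to laminin was higher too, with 7 of 10 hemidesmosome and laminin genes higher and 1 lower (median 3.29). COL17A1, the transmembrane collagen of hemidesmosomes, was at 23784 with DMSO, 2044 with JQ1, 22770 with GSK2801 and 1133 with both in HCC1806, against 24.4 to 72.3 (median 29.7) elsewhere (7.37 ± 0.62). The lines did not overlap for it, although the JQ1 libraries of HCC1806 were the low ones. The laminin chains LAMA3 (4.47 ± 0.47) and LAMB3 (3.51 ± 0.82) were higher, and so were the integrin chains ITGA6 (3.07 ± 0.27) and ITGB4 (4.47 ± 1.09). DST, the dystonin gene, was lower (−1.38 ± 0.17).

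Keratins of stratified epithelium were mixed. Of 11 tested members, 5 were higher and 1 lower (median 2.43), and 4 of the 15 in the list were too low to test. KRT5, which marks the basal layer, was at 32771 with DMSO, 11269 with JQ1, 37479 with GSK2801 and 9941 with both in HCC1806. It reached 17.6 to 97.3 in SUM159 and 0 to 16 in MDAMB231 (10.05 ± 1.25, adjusted p = 2.22e-04). KRT14, the usual partner of KRT5, was low in HCC1806, at 57.1, 1.14, 91.6 and 4.61, and did not pass (2.43 ± 1.25). KRT17, a keratin of activated epithelium, was at 167, 13.5, 255 and 2.11 and did not pass either (1.43 ± 1.58). KRT80 was lower in HCC1806 (−2.86 ± 0.29). Of the simple-epithelium keratins, KRT18 (2.75 ± 0.36) and KRT8 (2.67 ± 0.44), which pair in one filament, were higher, and KRT7 did not pass (0.33 ± 0.45).

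Epithelial transcription factors passed throughout, 16 of 17 tested members higher and 1 lower (median 4.32). GRHL2, a grainyhead factor that sustains CDH1, was at 4788, 6426, 4487 and 6061 in HCC1806 with DMSO, JQ1, GSK2801 and both, against 0 to 5.86 (median 1.28) elsewhere (11.11 ± 0.57, adjusted p = 1.69e-06). OVOL1, a repressor of mesenchymal genes, was higher as well (8.82 ± 0.33). TP63, the master factor of basal epithelium, was at 4737 to 5803 in HCC1806, 162 to 1831 in SUM159 and 1.83 to 6.0 in MDAMB231 (6.63 ± 2.11, adjusted p = 0.0289). It did not pass without any 1 of the 4 HCC1806 libraries (adjusted p = 0.0688 to 0.0891) or without MDAMB231 given both inhibitors (0.0516). TRPS1, a GATA-type repressor, was the lower one (−3.76 ± 0.26).

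Epithelial splicing, trafficking and surface protease genes had the highest median of the lists, 6.47, with 21 of 24 higher and 0 lower. ESRP1, which sets epithelial exon choice, was at 3675 to 4442 in HCC1806 and at 0 to 21.0 elsewhere (9.40 ± 0.57). Its relative ESRP2 was at 1472 to 1856 in HCC1806, 140 to 456 in MDAMB231 and 2.86 to 7.52 in SUM159 (5.30 ± 1.65). It passed with all libraries (adjusted p = 0.0265) and not without any 1 of the 4 HCC1806 libraries (0.0673 to 0.0886). ST14, the matriptase gene, was at 16542 to 18602 against 2.12 to 43.8 (10.31 ± 0.84), and its inhibitor gene SPINT1 was higher too (7.43 ± 1.28). MYO5C (3.90 ± 2.50), AP1M2 (3.45 ± 1.55) and EPS8L2 (2.65 ± 1.67) did not pass, and MDAMB231 overlapped HCC1806 in each.

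Of 42 genes of squamous differentiation and secreted defence, 20 were too low to test. They include IVL, the involucrin gene, at most 23.4 in any library. Of the other 22, 12 were higher and 1 lower (median 3.50). FGFBP1, which releases fibroblast growth factors from matrix, was at 805 to 14434 in HCC1806 and at 0 to 5.86 elsewhere (10.27 ± 0.76). CALML5, a calmodulin-like protein of upper epidermis, was at 101 to 1448 and is listed at 0 in the 8 other libraries. SERPINB1, an inhibitor of neutrophil proteases, was the lower one (−3.66 ± 0.22).

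Among transcription factors of the epithelial-mesenchymal transition, ZEB1, ZEB2 and PRRX1 were lower in HCC1806, and the others were not called lower. ZEB1 in HCC1806 was at 1.07 with DMSO, 6.83 with JQ1, 4.69 with GSK2801 and 9.60 with both, against 1540 to 3085 (median 2403) elsewhere (−8.65 ± 0.41, adjusted p = 1.14e-06). ZEB2 was at 1.07 to 11.7 against 508 to 1524 (−7.05 ± 0.42). PRRX1, a homeobox factor of connective tissue, is listed at 0 in all 4 HCC1806 libraries and was at 8.0 to 318 elsewhere (adjusted p = 6.79e-04). SNAI2 was at 724 to 1237 in HCC1806, between SUM159 (485 to 627) and MDAMB231 (2189 to 2497), and did not pass (−0.21 ± 0.62). TWIST1 was at 265 to 418 in HCC1806 and 122 to 247 in SUM159, is listed at 0 in MDAMB231, and did not pass (4.62 ± 2.23). SNAI3 (2.12 ± 0.39), FOXC1 (2.31 ± 0.35) and KLF8 (3.80 ± 0.39) were higher in HCC1806. In all, 3 of 14 (21.4%) were higher and 3 (21.4%) lower, near the 23.6% and 23.3% of all genes (median 0.35).

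The mesenchymal cytoskeleton and adhesion list was lower for 20 of 34 tested members and higher for 2 (median −2.07). Beside VIM, MYL9, a myosin light chain of contractile cells, was at 0 to 2.28 in HCC1806, 53.9 to 237 in SUM159 and 3079 to 4383 in MDAMB231 (−8.81 ± 1.53). MAP1B, a microtubule-associated protein, was at 11.7 to 68.3 against 2477 to 27445 (−8.11 ± 0.84). AXL, a receptor kinase often high in mesenchymal cells, was lower (−2.66 ± 0.66), but did not pass without HCC1806 given both inhibitors (−2.17, adjusted p = 0.0509). The 2 higher members are surface proteins, and 4 members were higher without MDAMB231 given both inhibitors. CD44, the hyaluronan receptor, was at 191303 with DMSO, 99546 with JQ1, 177945 with GSK2801 and 115022 with both, against 11487 to 14947 (median 13554) elsewhere (3.40 ± 0.17, adjusted p = 1.69e-06). THY1 was at 1486 to 2137 against 0 to 8.20 (9.40 ± 0.61). CDH2, the N-cadherin gene, did not pass (2.07 ± 2.71), with SUM159 (5173 to 7151) above HCC1806 (705 to 1412) and MDAMB231 (4.65 to 17.3) below it.

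Matrix genes were higher for 8 of 42 (19%) and lower for 10 (23.8%), near the 23.6% and 23.3% of all genes. Their median of −0.53 changed sign with the setting, to 0.94 over members with a mean of at least 100, 0.61 without SUM159 and 0.02 without the JQ1 libraries. COL8A1, a short-chain collagen gene, was at 9.60 to 26.7 in HCC1806 against 6125 to 28494 (−9.45 ± 0.33). FN1, the fibronectin gene, was lower by less (−2.33 ± 0.71, adjusted p = 0.025), and did not pass without HCC1806 with JQ1 (adjusted p = 0.0766), GSK2801 (0.0579) or both (0.108). On the higher side were the basement membrane collagen genes COL4A1 (4.20 ± 0.80) and COL4A2 (3.96 ± 0.98), the collagen VI genes COL6A1 (2.65 ± 0.68) and COL6A2 (4.33 ± 0.41), the plasminogen activator gene PLAU (2.33 ± 0.51) and the BMP antagonist gene GREM1 (6.90 ± 0.86). SPARC (8327 to 11397), MMP2 (11962 to 20375) and COL1A1 (10269 to 46871) were high in SUM159 alone of the lines and did not pass. In MDAMB231 they reached 3.77, 2.67 and 127, and in HCC1806 11.4, 629 and 438.

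**Figure D2:**
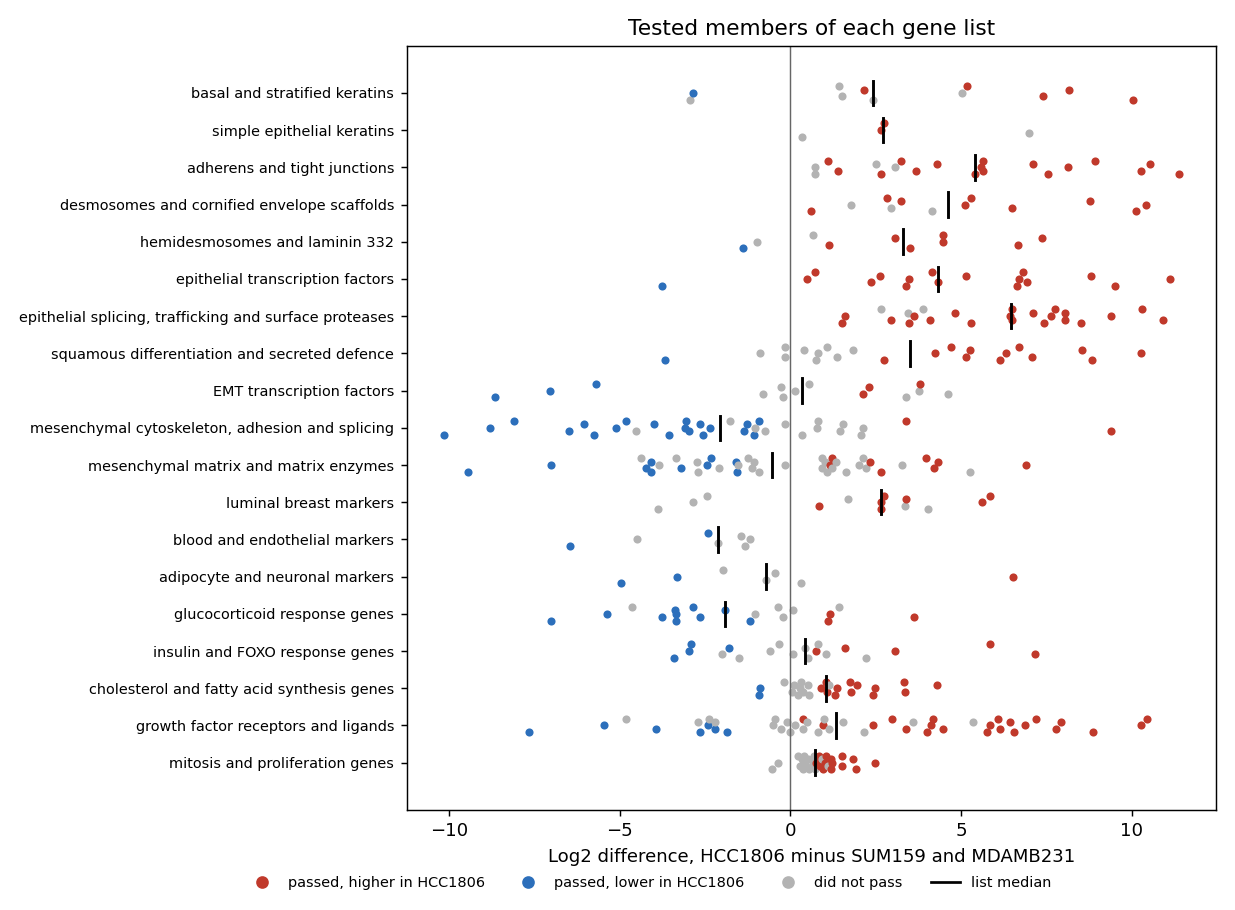
Log2 difference of every tested member of each gene list, with members that passed in red (higher in HCC1806) or blue (lower), others in grey and the list median as a black bar. The 8 epithelial lists at the top have medians of 2.43 to 6.47, while the mesenchymal cytoskeleton (−2.07) and glucocorticoid response (−1.92) lists lie below 0.

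Mainly outside the lists, the largest differences were of genes at or near 0 in the lower group, whose size therefore depends on the added 1. Of the genes named in this paragraph, FXYD3 and SCD are list members. UCHL1, a ubiquitin hydrolase gene, was at 5890 to 9303 in HCC1806 and at 0 to 11.7 elsewhere, and SFRP1, a secreted WNT antagonist gene, at 4524 to 6884 and 0 to 4.06. ANO1 (a calcium-activated chloride channel), TMEM200A, NTSR1 (the neurotensin receptor), LAD1 (an anchoring filament protein), UPK1B (a uroplakin) and FXYD3 (a regulator of the sodium pump) had log2 differences of 10.91 to 11.42. Among genes with at least 10 in every library, ALDH1A3, which makes retinoic acid, led, at 10179 to 60595 against 13.3 to 61.8 in SUM159 and 184 to 386 in MDAMB231 (8.12 ± 1.13). The abundant gene with the largest difference was SLC7A5, the leucine transporter gene, at 181848, 281143, 255164 and 326196, against 9384 to 32176 (median 14044) elsewhere (4.01 ± 0.34, adjusted p = 2.31e-05). Other abundant genes higher by at least 2-fold included SCD (1.75 ± 0.27), CALR (1.79 ± 0.12), HSP90B1 (2.34 ± 0.16), HSPA5 (2.27 ± 0.20), PDIA3 (2.39 ± 0.30), APLP2 (1.70 ± 0.40) and TRIM28 (2.67 ± 0.13).

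On the lower side, RIC8A, a chaperone of G protein subunits, was at 0, 1.14, 1.17 and 1.07 in HCC1806, against 3995 to 5978 (median 4365) elsewhere (−11.36 ± 0.24, adjusted p = 7.66e-08). Next in size came VSTM2L (−10.72 ± 0.43), VIM, KCTD9 (−10.04 ± 0.42), CDCA2 (−9.63 ± 0.38), COL8A1 and HSD17B4, a peroxisomal enzyme of fatty acid oxidation, at 3.20 to 7.03 against 2325 to 5863 (−9.24 ± 0.29). BET1L, which acts in vesicle fusion at the Golgi, was among the 10 largest with at least 10 in every library (−5.96 ± 0.23). Abundant genes that were lower included FTL, the light chain of the iron store ferritin (−2.50 ± 0.31), ACTG1, a cytoplasmic actin gene (−1.19 ± 0.20), and TXNRD1, the thioredoxin reductase gene (−1.47 ± 0.11).

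Growth factor receptors and ligands were higher for 22 of 48 tested members (45.8%) and lower for 7 (14.6%), beside 23.6% and 23.3% of all genes (median 1.33). The WNT ligand WNT7A was at 1060 to 4345 in HCC1806 and at 0 to 2.0 elsewhere (10.45 ± 0.54), and the Notch ligand DLL1 at 1768 to 2948 against 0 to 14.2 (8.88 ± 0.77). FGFR2, whose epithelial exon is chosen by ESRP1, was at 412, 1366, 635 and 1204 against 0 to 10.0 (median 2.59) elsewhere (7.93 ± 0.42). Exons were not resolved here. Its relatives FGFR3 (3.99 ± 0.37) and FGFR4 (4.46 ± 0.54) were higher, while FGFR1 was lower (−2.40 ± 0.33). KIT (7.2 ± 0.62) and NOTCH3 (5.75 ± 0.66) were higher too. WNT5A, a ligand of the noncanonical pathway, was at 0 to 1.14 against 158 to 416 (−7.65 ± 0.41). EGFR did not pass (1.12 ± 0.71), with HCC1806 (24205 to 31932) within the range of MDAMB231 (19349 to 38831) and above SUM159 (4143 to 6379).

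Hydrocortisone, a glucocorticoid, was in the medium of SUM159 and MDAMB231 and not in that of HCC1806. Of 19 tested genes known to respond to it, 10 were lower in HCC1806 and 3 higher, beside 23.3% and 23.6% of all genes (median −1.92). Without any 1 HCC1806 library, 1 was higher. FKBP5, a co-chaperone of the receptor and its classic target, was at 846 with DMSO, 1679 with JQ1, 932 with GSK2801 and 1817 with both in HCC1806. SUM159 held 18909 to 42855 and MDAMB231 7700 to 10161, and the lines did not overlap (−3.75 ± 0.60, adjusted p = 9.16e-04). DUSP1, a MAP kinase phosphatase, was at 145, 195, 121 and 172, against 3379 to 11539 (median 6036) elsewhere (−5.37 ± 0.31, adjusted p = 2.78e-06). TSC22D3, also known as GILZ (−3.35 ± 0.79), KLF9 (−3.37 ± 0.84) and the metallothionein genes MT1X (−3.36 ± 0.54) and MT2A (−2.84 ± 0.31) were lower as well. NR3C1, the receptor gene, was lower by less (−1.19 ± 0.15), at 1904 to 2273 against 3351 to 5738. SGK1 (1.16 ± 0.39, adjusted p = 0.035), SPSB1 (1.10 ± 0.40, adjusted p = 0.0484) and TFCP2L1 (3.62 ± 0.41) were higher. SGK1 did not pass without any 1 HCC1806 library (adjusted p = 0.0794 to 0.113), SUM159 with GSK2801 (0.0611), or MDAMB231 with JQ1 (0.0607) or both (0.0529). SPSB1 did not pass without any 1 HCC1806 library (0.0984 to 0.155) or SUM159 with DMSO (0.0807), GSK2801 (0.0797) or both (0.0804). PER1 (−1.03 ± 0.42) did not pass. The part of the medium in these differences was not tested, since no line was grown in both media.

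**Figure D3:**
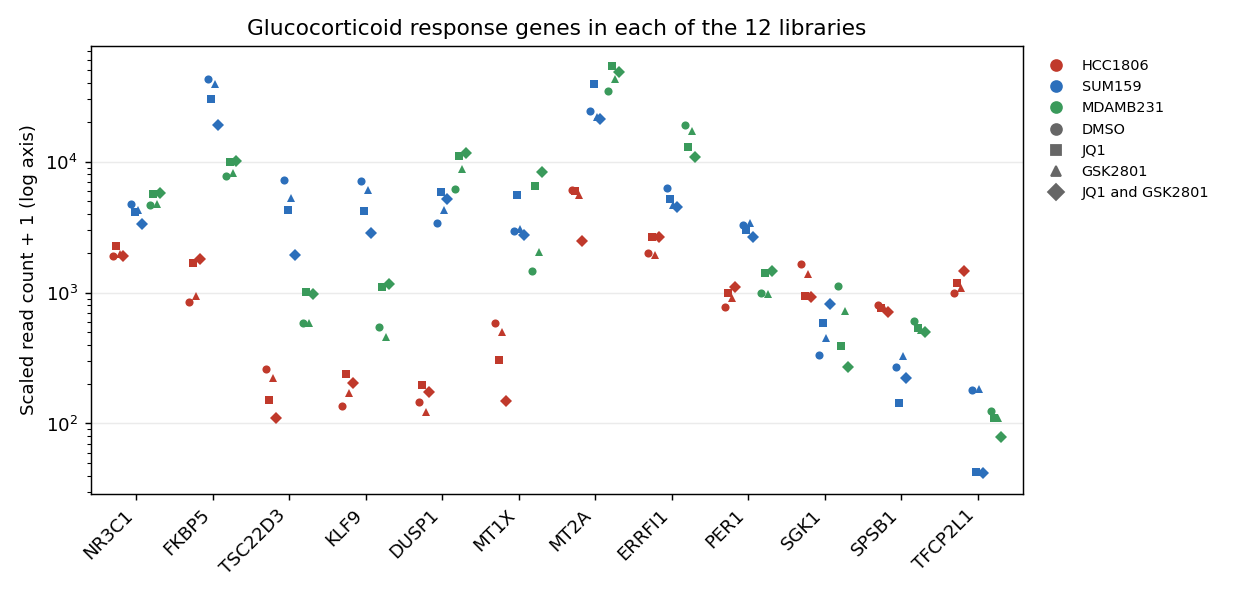
Scaled read count plus 1 (log axis) of 12 glucocorticoid response genes in each of the 12 libraries, with the line as color and the treatment as symbol. The HCC1806 libraries lie lowest for NR3C1, FKBP5, TSC22D3, KLF9, DUSP1, MT1X, MT2A and ERRFI1, and highest for SPSB1 and TFCP2L1.

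Insulin was likewise added for SUM159 and MDAMB231 only. Of the insulin response genes, 5 of 19 (26.3%) were higher and 4 (21.1%) lower, near the 23.6% and 23.3% of all genes (median 0.42). The higher count was 2 without HCC1806 given JQ1, GSK2801 or both, and 3 without HCC1806 with DMSO or MDAMB231 with GSK2801. TXNIP, which restrains glucose uptake, was at 961 to 2783 in HCC1806 against 4295 to 47587 (−3.42 ± 0.32). PDK4 (−2.91 ± 0.74), which is repressed by insulin, was also lower in HCC1806, the line grown without added insulin. ERBB3 was among the 5 higher members. The part of insulin in these values was not tested. Serum differed at 10% against 5%. Of 25 genes of cholesterol and fatty acid synthesis, 13 (52.0%) were higher in HCC1806 and 2 (8.0%) lower (median 1.05). HMGCS1, at 11692 to 18689 against 1196 to 2309 (3.33 ± 0.14), SQLE (3.37 ± 0.38) and SC5D, at 6499 to 9814 against 1193 to 1783 (2.48 ± 0.08), all enzymes of the sterol pathway, were among the higher ones. ACLY (−0.90 ± 0.11) and INSIG1 (−0.92 ± 0.23), a sterol-sensing retention protein gene, were lower, and FASN (0.22 ± 0.34) and FDPS (0.10 ± 0.11) did not pass.

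Markers of luminal breast cells were higher for 7 of 13 (53.8%) and lower for 0, beside 23.6% and 23.3% of all genes (median 2.68). Of the 7, 2 were KRT8 and KRT18. GATA3 (2.65 ± 0.32) and ERBB3 (5.86 ± 0.81) were also among the 7. Of the 13, 2, 1 and 3 were lower without MDAMB231 with DMSO, JQ1 and GSK2801. Markers of blood and endothelial cells summed to 373 to 1307 in HCC1806, 976 to 2467 in SUM159 and 3448 to 9180 in MDAMB231, with MS4A1 and HBB listed at 0 in all 12. Of 7 tested, 0 were higher and 2 (28.6%) lower, KDR among them (−6.47 ± 0.62). Of 7 adipocyte and neuronal markers, 1 (14.3%) was higher and 2 (28.6%) lower. The lower share of these markers and of the blood and endothelial ones was near the 23.3% of all genes. Mitosis and replication genes were higher for 14 of 32 (43.8%) and lower for 0 (median 0.74). Of the 32, 9 were higher against each line, beside 23.3% of all genes. The count of 14 rested on single libraries, with 6 higher without HCC1806 given JQ1 and 5 without HCC1806 given both inhibitors. MKI67 was at 33186 to 46182 in HCC1806, 11278 to 19668 in SUM159 and 1936 to 14857 in MDAMB231 (1.91 ± 0.46). The 32 genes summed to 257232 to 261561 in HCC1806, 135347 to 177050 in SUM159 and 51489 to 206853 in MDAMB231.

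Most differences that passed kept their direction over the treatments, although the fit that chose these genes drew on the same 12 libraries. Of the genes that passed, 3216 of 3362 higher and 3161 of 3321 lower ones had HCC1806 on that side of both other lines in all 4 treatments. Of all 14232 tested genes, passed or not, 3728 were on the higher side and 3527 on the lower side in this way. These counts describe the genes and do not test whether a difference holds over treatments. A term for the change of the difference with JQ1, alone or combined, passed for 1145 genes (8.05%), 630 upward and 515 downward, and 424 of these were among the 4098 genes that differed by at least 2-fold. JQ1 doses differed by line, so this term joins line and dose. The count rested on single libraries. It fell to 54 genes without HCC1806 with DMSO, 269 without its JQ1 library, 122 without GSK2801 and 53 without both. Without SUM159 with DMSO or JQ1 it was 684 or 746, and without MDAMB231 with DMSO, JQ1 or GSK2801 it was 609, 763 or 700. The term passed for 5 of the 11 tested keratins of stratified epithelium and 0 of 4 simple ones. It was −5.18 ± 0.95 for KRT6A (adjusted p = 0.019), −5.19 ± 1.10 for KRT14, −4.25 ± 0.74 for KRT17, −4.0 ± 0.86 for KRT23 and −2.26 ± 0.55 for KRT4. KRT5 (−0.82 ± 1.52, adjusted p = 0.769), KRT13 (0.18 ± 0.80) and KRT15 (1.20 ± 0.51) did not pass. The KRT6A term did not pass without any 1 HCC1806 library (adjusted p = 0.104 to 0.141). The KRT14 term did not either (0.1 to 0.193), nor without SUM159 with GSK2801 (0.0539) or MDAMB231 with JQ1 (0.0662) or GSK2801 (0.0633). The KRT17 term did not pass without HCC1806 with DMSO (0.0912), GSK2801 (0.113) or both (0.102). The KRT23 term did not pass without any 1 HCC1806 library (0.0736 to 0.212), nor without SUM159 with DMSO or both, or MDAMB231 with DMSO, JQ1 or GSK2801 (0.0518 to 0.0693). The KRT4 term passed only with all 12 libraries or without MDAMB231 given both inhibitors (otherwise 0.0651 to 0.231), and did not pass after quantile normalization or with no filter on low values. KRT17 was higher in HCC1806 by 3.04 with DMSO and 4.07 with GSK2801, by 0.32 with JQ1, and stood at −1.72 with both. COL17A1 (−3.21 ± 0.42) and CD44 (−0.84 ± 0.14) also had a downward term, which brought HCC1806 nearer to the other lines. FOXC1 (1.80 ± 0.22) and ELF3 (3.77 ± 0.69) had an upward one. These 4 terms kept their direction but did not pass without HCC1806 with DMSO, GSK2801 or both (adjusted p = 0.056 to 0.148), and without its JQ1 library CD44 (0.0853) and ELF3 (0.111) did not. For CDH1 (2.76 ± 1.10, adjusted p = 0.161), VIM (−0.56 ± 0.51, adjusted p = 0.536) and ZEB1 (1.65 ± 0.48, adjusted p = 0.0772) the term did not pass.

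**Figure D4:**
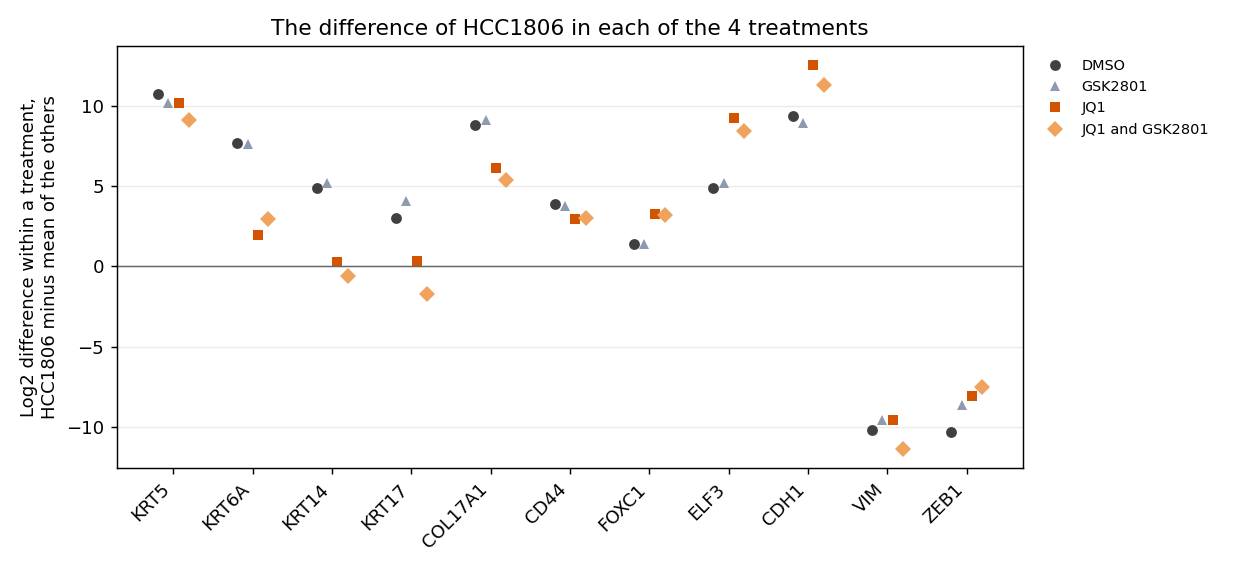
Log2 difference of HCC1806 from the mean of the other lines within each treatment, 1 library per line, for 11 genes. KRT6A drops from 7.67 with DMSO to 1.93 with JQ1, KRT14 (0.28) and KRT17 (0.32) lie near 0 with JQ1, and CDH1 (8.93 to 12.53) and VIM (−11.34 to −9.54) keep their sides.

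The smallest p-values of the JQ1 term (adjusted p = 0.00169 in each case) were those of INA, CA13, CROT, SDC2 and ZNF804A upward and of FAM171A1, STEAP1, CLMP, RIN2 and GIMAP4 downward. INA, a neuronal intermediate filament gene, is listed at 0 in HCC1806 with DMSO and GSK2801 and in all 8 other libraries, and was at 121 with JQ1 and 246 with both in HCC1806. GIMAP4, a GTPase gene of lymphocytes, was the reverse, at 502 with DMSO and 411 with GSK2801 but 1.14 and 2.13 in the JQ1 libraries, and at most 1.17 elsewhere. INA and GIMAP4 entered the fit only through the HCC1806 libraries in which they were high. Their p-values are therefore no independent support for a change with JQ1. SDC2, a syndecan, had a log2 difference of −6.73 with DMSO and −3.61 with JQ1.

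Genes with high or low values in HCC1806 were unevenly placed on the chromosomes. Positions on hg38 came from GENCODE v29 for 13988 tested genes (98.3%). The median log2 difference was lowest on chromosomes 18 (−0.55) and 4 (−0.47), where 37.6% and 39.7% of genes were lower. It was highest on 21 (0.49), 2 (0.40) and 16 (0.40), where 28.1%, 36.7% and 31.0% were higher. On 21 and 16 the medians were 0.13 and 0.07 against SUM159, but 0.66 and 0.61 against MDAMB231. Chromosome 2 had 0.36 against each line. Chromosome 18 had −0.68 against SUM159 and −0.23 against MDAMB231, and chromosome 4 had −0.45 and −0.43. Of 13551 runs of 20 neighbouring tested genes, 98 in 100 had a median between −1.23 and 1.65. The highest run, on chromosome 7 from 26173057 to 27200106, held the HOXA cluster, whose homeobox genes set position along the body axis. Its median was 4.34, and 13 of its 20 genes were higher and 0 lower. HOXA7 was at 353 to 491 in HCC1806, 0 to 1.06 in SUM159 and 0 to 0.667 in MDAMB231 (8.44 ± 0.39), and HOXA13 at 276 to 387 against 3.33 to 16.4 (5.00 ± 0.37). HOXA10 (5.10 ± 2.31) did not pass. SUM159 held 146 to 380 of it, and MDAMB231 is listed at 0. Against SUM159 the median of the run was 1.65, and against MDAMB231 5.68. The antisense RNAs of the cluster overlap its genes, and as strand use in counting is not given in the sources used here, their reads cannot be told apart.

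**Figure D5:**
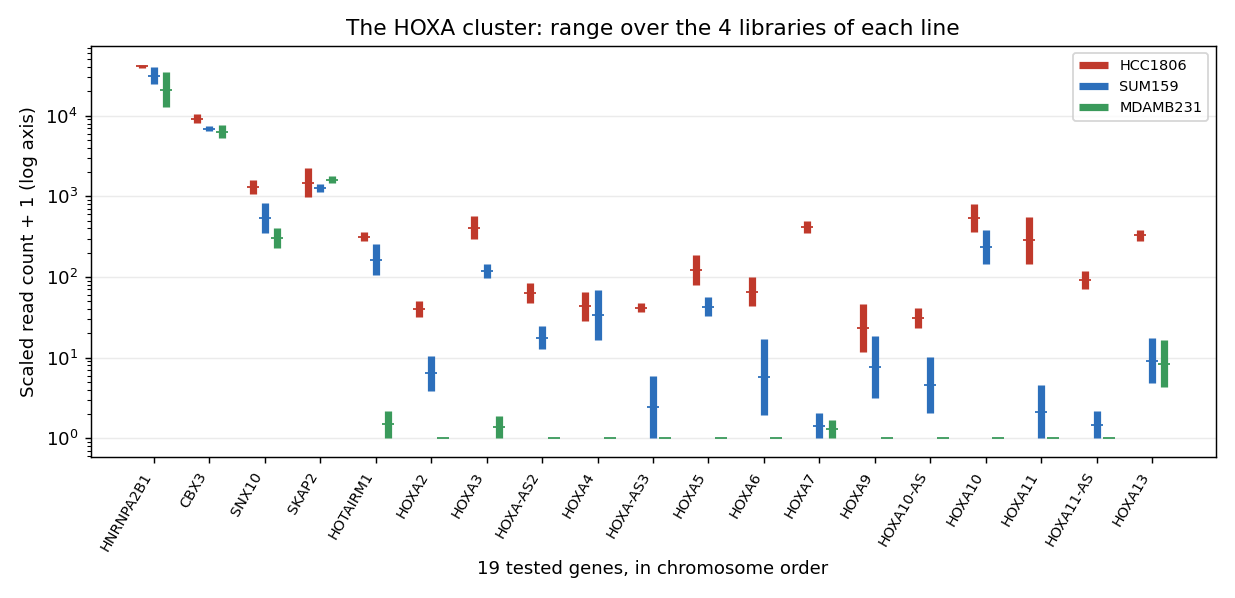
Range of the scaled read count plus 1 (log axis) over the 4 libraries of each line for 19 genes of the HOXA run, with a tick at the geometric middle. HOXA7, HOXA11 and HOXA11-AS reach at most 3.52 in the other lines, while HOXA3 and HOXA5 are at 31.9 to 145 in SUM159 and at most 0.913 in MDAMB231.

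The next highest runs were on chromosome 7 from 15200318 to 22727613 (median 2.77, 10 higher and 0 lower) and on chromosome 19 from 20167228 to 23687220 (median 2.75, 7 higher and 3 lower). The first had a median of 1.45 against SUM159 and 1.28 against MDAMB231, each below its pooled 2.77. Chromosome 7 as a whole had a median of −0.45, with 21.1% of genes higher and 38.5% lower. The run on chromosome 19 holds a cluster of KRAB-type zinc finger genes, and its median was 5.04 against SUM159 and 0.36 against MDAMB231. The lowest run, on X from 140783578 to 150514178, holds the testis-restricted SPANX and MAGE genes (median −3.75, 2 higher and 11 lower). Its median was −3.08 against SUM159 and −1.29 against MDAMB231. Its 3 MAGEA genes did not pass, at −3.55 to 1.11. MAGEC2 is listed at 0 in all HCC1806 libraries and was at 64.1 to 448 elsewhere. SPANXA1 and SPANXA2 are near-identical and had the same values, so their reads are uncertain. The others were on chromosome 7 from 149003062 to 150398631 (median −1.81, 15 lower and 0 higher) and on chromosome 3 from 58306262 to 67947713 (median −1.79, 15 lower and 0 higher). The last holds FHIT, a fragile-site gene, at 0 to 1.07 in HCC1806, 9.45 to 25.4 in SUM159 and 86.7 to 136 in MDAMB231 (−5.15 ± 0.85). DNA copy number was not measured.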

How the data were processed

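Polyadenylated RNA of 12 libraries was analysed, 4 for each of 3 cell lines. Per the submitters' processing notes, STAR 2.4, Salmon 0.60 and hg38 were used. The labels name both a stranded and an unstranded kit, and strand use in counting is not given in the sources used here. The values deposited by the authors are a signal on a linear scale, estimated read counts scaled to a common upper quartile. Of the values above 0, 67.2 to 69.3% were whole multiples of 1 read (tolerance 0.02), so no count test was run. Entries with a date in place of a symbol (27 of 28539, 0.168 to 0.218% of the signal) were left out. Genes with a mean of at least 10 entered a moderated linear model (limma 3.58.1, R 4.3.3) after adding 1 and taking log2, with a variance trend, the treatment as block and Benjamini-Hochberg adjustment. The procedure was run on simulated libraries, drawn independently and with no difference between SUM159 and MDAMB231. The residual of the main fit holds that difference, so the simulation does not give the error rate of the main comparison. The same treatment links libraries across lines by the labels, with no shared culture stated.

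The libraries to compare and the gene lists were chosen with earlier results of these data known. Named genes were, in each direction, the 10 largest differences, the 10 largest with at least 10 in every library and the 10 most abundant past 2-fold. They were taken from genes on 1 side in all 4 treatments. List members with the largest differences, members whose role the text needs, the 5 smallest p-values of the JQ1 term in each direction and the 3 highest and lowest runs of neighbours were added. RefSeq promoter windows were searched for both strands of the E-box. Alternatives covered the pseudocount, filter, scaling, variance trend, block, lines, treatments and single libraries.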

Additional observations from a re-analysis of the deposited data

Results flagged for a closer look

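The difference between HCC1806 and the other lines changed with JQ1, by limma's test of that term, for 19 of the genes described. The change on the log2 scale was −5.18 for KRT6A, −5.19 for KRT14, −4.25 for KRT17, −4.0 for KRT23, −2.26 for KRT4, −3.21 for COL17A1 and −0.84 for CD44. It was 1.80 for FOXC1 and 3.77 for ELF3. Among the genes with the smallest p-values it was 7.44 for INA, 3.46 for CA13, 3.09 for CROT, 3.19 for SDC2 and 3.10 for ZNF804A, and −2.25 for FAM171A1, −2.58 for STEAP1, −2.34 for CLMP, −2.27 for RIN2 and −7.18 for GIMAP4. JQ1 dose and line cannot be told apart. INA and GIMAP4 were tested only because of the HCC1806 libraries in which they were high, so their terms are descriptions.

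Of 48 groups of 4 libraries of a line, 3 held a library far from the others. Chance flags about 1 in 20 among replicates, but the 4 libraries each had a different treatment, so that rate does not apply here. KRT5 in SUM159 had a gap of 0.892 of its range, set by the library with both inhibitors (17.6). RIC8A in HCC1806 had a gap of 0.936, set by the DMSO library listed at 0 beside values of 1.07 to 1.17. GIMAP4 in SUM159 had a gap of 1.000, set by 1.17 with DMSO beside 3 libraries at 0. The gaps of RIC8A and GIMAP4 are steps between 0 and about 1 read.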

How the results depend on the processing

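With the treatment block left out, 6368 genes were called (3250 higher, 3118 lower) and 5240 against each other line, and the pairing of libraries by treatment moved no count by over 1.5 times. With 1 mean per line 0 genes were called in either direction. The 6 libraries without JQ1 gave 3305 calls (1635 higher, 1670 lower), of which 3188 were shared with the whole set. Without MDAMB231 there were 10085 (5073 lower) and 6452 shared, and with a test against 2-fold 1812 (1076 higher, 736 lower). Leaving out 1 library gave 5076 to 6569 calls (2460 to 3332 higher, 2531 to 3257 lower), 5968 to 6478 against each line (2916 to 3313 higher, 2924 to 3165 lower), and 53 to 1151 for the JQ1 term. Quantile normalization moved the median of all genes from 0.03 to −0.09, with 2967 genes higher and 3868 lower. Only values that had not passed changed sign. Without SUM159 these were CDH4 (−4.67), DSC2 (−0.48), PKP2 (−0.33), MYO5C (−0.36), EPS8L2 (−0.18), SPARC (1.30), COL1A1 (1.97), EGFR (−0.0497) and FDPS (−0.00576). Without MDAMB231 they were KRT17 (−0.89), KRT7 (−0.42), KRT23 (−1.35), SNAI2 (0.83), CDH2 (−2.55), MMP2 (−5.02) and FASN (−0.16). Without JQ1 libraries SNAI2 was at 0.17 and FASN at −0.27. Leaving out 1 library gave CDH4 −0.46 to 1.88, MMP2 −0.13 to 2.67, SNAI2 −0.45 to 0.0379 and FASN −0.0411 to 0.46. The JQ1 term of VIM was 0.0986 after quantile normalization and −1.46 to 0.34 with 1 library left out, above 0 without HCC1806 given both inhibitors. Leaving out 1 library, that of KRT5 was −1.76 to 0.20 and that of KRT13 −0.88 to 1.25.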

Other observations

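The neighbours of RIC8A, KCTD9 and HSD17B4, 3 of the 10 genes with the largest lower differences, were read. The 3 were chosen after values had been seen, and the neighbours of the others were not read. RIC8A, BET1L, SIRT3 and PSMD13 lie side by side on chromosome 11 from 167784 to 252984 (hg38). Their log2 differences were −11.36 ± 0.24, −5.96 ± 0.23, −2.09 ± 0.40 and −1.0 ± 0.08, while LINC01001 on the one side was at 1.89 ± 0.41 and PGGHG on the other at 0.57 ± 0.53. IFITM2, the next gene past PGGHG, was lower again (−2.59 ± 0.45). KCTD9 and CDCA2 are adjacent, with GNRH1 beside them at −3.38 ± 0.41 and DOCK5 beyond it at 0.04 ± 0.12. Past DOCK5 lay NEFL at 6.51 ± 0.38 and STC1 at −8.48 ± 0.42. On the other side PPP2R2A was at −0.66 ± 0.08 and BNIP3L at −2.14 ± 0.24. HSD17B4 on chromosome 5 stood at −9.24 ± 0.29 between TNFAIP8 at −0.03 ± 0.34 and PRR16 at −5.30 ± 0.42. DNA was not analysed here.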
